A study of Mus musculus with 16 samples.

Results

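Adipocytes in skeletal muscle are followed here through 10 marker genes of fat cells: Adipoq, Fabp4, Plin1, Cidec, Cfd, Retn, Lep, Lpl, Pparg and Ucp1. Every probe of the array that carried 1 of these gene names was taken, whatever its values, which gave 13 of the 55681 probes. They are 10 of the 34650 gene names on it. RNA came from the gastrocnemius muscle of the calf, in 3 wild-type mice (WT) and in 3 mice heterozygous for Eif6 (Eif6+/-, here Het). The Eif6 protein is an initiation factor that binds the large ribosomal subunit. The mice were male littermates of the C57BL6 strain, 8 to 16 weeks old and fed chow, and no treatment was given. Each genotype was profiled as total RNA of whole muscle (3 arrays), as RNA from pooled gradient fractions with several ribosomes per transcript (polysome, 3 arrays) and as RNA from the fraction with a single ribosome (monosome, 2 arrays), 16 arrays in all. RNA of each kind was prepared from the same mice, and arrays of a genotype that share a number were taken as those of 1 mouse. The muscle was trimmed of visible fat and connective tissue before it was frozen, so that the samples hold whatever fat lies inside the muscle or remained on it. The lowered Eif6 dose is not limited to muscle fibres in this mouse.

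Adipocytes store triglyceride in a large droplet and secrete hormones. Between muscle fibres they lie among stromal progenitors, vessels and fibres, and their number there rises with injury, disuse and age. Among the 10 genes, Adipoq (adiponectin), Cfd (adipsin, the complement factor D protease), Retn (resistin) and Lep (leptin) encode secreted proteins. Plin1 (perilipin 1) and Cidec coat the lipid droplet. Fabp4 carries fatty acids in the cytosol, Lpl is the lipase that releases fatty acids from circulating lipoproteins, Pparg is the nuclear receptor that directs fat cell differentiation, and Ucp1 is the uncoupling protein of brown fat. Several of them have a second source in muscle: endothelial cells of capillaries also make Fabp4, and muscle fibres make Lpl. Fewer fat cells and less RNA per fat cell cannot be told apart in such bulk samples.

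The sequences below are shown because the results turn on where a probe lies and on which genes rise and fall together. The first set holds probes of 60 bases that lie within the coding part of their transcripts, as the array files give them, with positions on build mm9. The Adipoq probe lies at chr16:23157576-23157635 on the plus strand. The Retn probe lies at chr8:3657312-3657371, plus strand. The Lpl probe shown lies toward the 5′ side of its transcript at chr8:71425050-71425109, plus strand. The Cidec probe shown is the 5′ member of a pair and lies at chr6:113378116-113378175, minus strand.
Adipoq probe: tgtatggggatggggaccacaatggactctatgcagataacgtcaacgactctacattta
Retn probe: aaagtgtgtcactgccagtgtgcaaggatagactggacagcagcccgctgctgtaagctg
Lpl 5′ probe: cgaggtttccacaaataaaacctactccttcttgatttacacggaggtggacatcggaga
Cidec 5′ probe: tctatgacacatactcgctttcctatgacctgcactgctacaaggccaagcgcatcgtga

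The second set holds 250 bases before the transcription start from RefSeq (build GRCm38.p6) for Adipoq and Cidec, which varied together between mice, for Plin1, which did not vary with them, and for Lep, which was not detected. The RefSeq table held 11 such windows for 8 of the 10 genes. It held none for Fabp4 and Lpl. Windows were searched on both strands for TTGCNNAA, which matches the palindrome bound by C/EBP factors, for its stricter form TTGCGCAA, which it contains, and for CCAAT. Capitals mark matches. The windows are chr16:23146286-23146535 on the plus strand for Adipoq, chr6:113434765-113435014 on the minus strand for 1 of the 2 Cidec starts, chr7:79732777-79733026 on the minus strand for Plin1, and chr6:29059971-29060220 on the plus strand for Lep.
Adipoq: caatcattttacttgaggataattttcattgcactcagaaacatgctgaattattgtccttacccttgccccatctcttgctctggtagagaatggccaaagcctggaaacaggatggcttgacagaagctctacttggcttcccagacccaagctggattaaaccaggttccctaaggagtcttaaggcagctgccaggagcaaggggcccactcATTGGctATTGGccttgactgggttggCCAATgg
Cidec: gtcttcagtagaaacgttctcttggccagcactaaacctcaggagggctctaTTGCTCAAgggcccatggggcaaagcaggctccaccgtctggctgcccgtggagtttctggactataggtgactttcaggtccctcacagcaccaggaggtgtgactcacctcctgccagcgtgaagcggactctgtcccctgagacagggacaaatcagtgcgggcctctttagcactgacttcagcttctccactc
Plin1: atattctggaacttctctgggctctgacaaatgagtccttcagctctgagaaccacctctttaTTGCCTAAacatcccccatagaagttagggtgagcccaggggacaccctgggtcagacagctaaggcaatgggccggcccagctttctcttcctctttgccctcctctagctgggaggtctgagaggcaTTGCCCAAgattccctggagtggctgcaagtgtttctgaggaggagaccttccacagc
Lep: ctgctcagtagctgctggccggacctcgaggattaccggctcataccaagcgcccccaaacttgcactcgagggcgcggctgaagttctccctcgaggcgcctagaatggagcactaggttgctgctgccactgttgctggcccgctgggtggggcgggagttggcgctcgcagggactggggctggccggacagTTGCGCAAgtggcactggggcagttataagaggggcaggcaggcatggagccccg

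TTGCNNAA lay in 9.56% of the 32851 promoter windows in the table and in windows of 4 of the 8 genes, namely Cidec, Lep, Plin1 and Pparg. Plin1 had matches at -187 and -58 from the start. TTGCGCAA lay in 0.164% of all windows and, among the 8 genes, in that of Lep, at -55 from the start. CCAAT lay in 33.8% of all windows and in those of Adipoq and Pparg. The windows of Cfd and Retn held none of these letters. These are matches of letters, and no binding was measured.

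Of the whole series, these facts bear on the values. Eif6 was lower in Het, with a Het minus WT difference of -0.93 log2 in whole muscle and -1.32 in polysomes on its brighter probe (limma adjusted p = 0.35 and 0.20), and on that probe all 3 Het arrays lay below all 3 WT arrays in both kinds of RNA. Arrays differed in brightness (75th percentile of the signal) from 12.7 to 150 scanner units, and all Het whole-muscle arrays (13.5 to 33.0) were dimmer than all WT whole-muscle arrays (42.3 to 150). WT polysome 2 and WT monosome 2, from the same mouse, stood apart: over 1200 transcripts with probes at least 500 bases apart, the median difference of the 5′ minus the 3′ probe was 0.58 and 0.80 log2 there and lay between -1.35 and -0.79 on the other 14 arrays. The whole-muscle array of this mouse, at -1.04, did not stand apart. Many values below are also given without this mouse. The arrays were hybridised on 2 slides, and in every mouse the polysome and the whole-muscle array were on different slides. All 13 listed genes of skeletal muscle fibres were detected and tested. The mice of a genotype were separate animals. Genotype fits within an RNA kind pooled the spread over the RNA kinds and took the arrays of a mouse as independent. Comparisons of polysomes with another RNA kind used a single difference per mouse.

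Of the 10 adipocyte genes, 8 were detected and tested, with 10 probes: in 1 group or more, every array gave a signal that the scanner software called well above background. The probes of Lep and Ucp1 were not well above background on any of the 16 arrays. Leptin mRNA and the brown fat marker were thus not detectable with these probes. The label of fat cells therefore rests at most on the other 8 genes. Among these, Fabp4 and Lpl have a second source in muscle. Plin1 and Lpl did not rise with Adipoq in whole muscle, as given below. Adipoq, Cfd, Retn, Plin1, Pparg and Fabp4 were above background on all 16 arrays, as were the 3′ probe of Cidec and the 5′ probe of Lpl. The 3′ probe of Lpl missed this on WT monosome 2 alone. The 5′ probe of Cidec, whose sequence is given above, was well above background on WT whole muscle 1 only. The highest-signal probe of each gene stands for it in what follows, which for Cidec and Lpl is the 3′ probe.

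**Figure D1:**
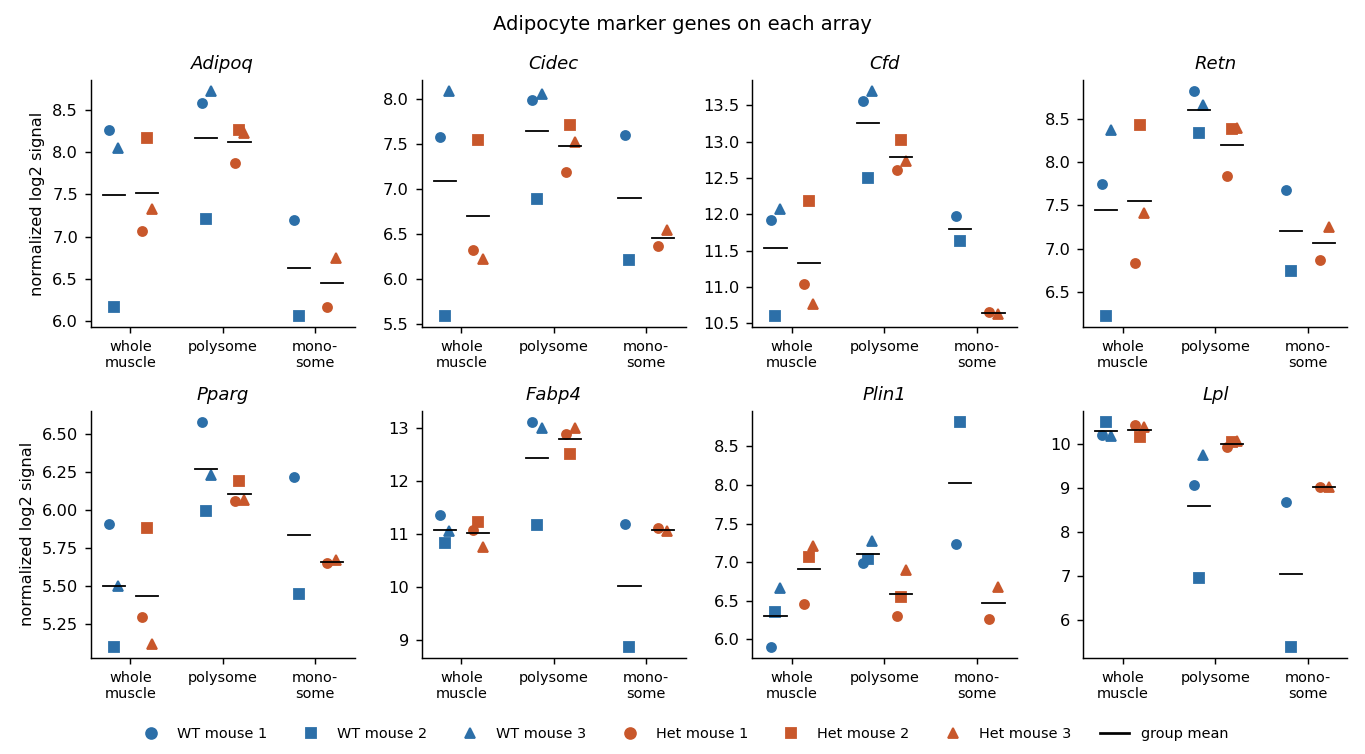
Normalised log2 signal (y axis, scale differs between panels) of the 8 detected adipocyte marker genes in whole-muscle, polysome and monosome RNA (x axis), 1 point per array, with marker shape for the mouse and a black bar for each group mean. The WT and Het whole-muscle points of Adipoq overlap (6.17 to 8.26 and 7.06 to 8.16), and WT mouse 2 is the lowest point for Lpl in polysomes (6.96).

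The clearest feature of whole muscle was a difference between mice rather than between genotypes. Adiponectin mRNA (Adipoq) gave a log2 signal of 8.26, 6.17 and 8.05 in WT mice 1, 2 and 3 and of 7.06, 8.16 and 7.33 in Het mice 1, 2 and 3. WT mice 1 and 3 and Het mouse 2 were high, and the groups overlapped over their whole width. The range between the highest and the lowest mouse was 2.09 log2 units. Cidec gave 7.58, 5.58 and 8.09 in WT and 6.32, 7.54 and 6.21 in Het, with the same 3 mice on top and a range of 2.51. Adipsin mRNA (Cfd) gave 11.92, 10.60 and 12.07 in WT and 11.04, 12.18 and 10.77 in Het. Resistin mRNA (Retn) gave 7.75, 6.23 and 8.37 in WT and 6.83, 8.42 and 7.42 in Het. For both, the high mice were again WT 1, WT 3 and Het 2. The second Retn probe had the same 3 mice on top and ran from 5.41 in WT mouse 2 to 8.22 in WT mouse 3.

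Pparg, the regulator of fat cell differentiation, had the same 3 mice on top within a narrower range of 0.81 (5.91, 5.10 and 5.50 in WT and 5.30, 5.88 and 5.12 in Het). These 3 mice were thus the highest for Adipoq and for 4 of the other 7 detected genes, against 5.82% of all tested genes. The set of high mice was read from Adipoq itself, so this is a description. The 3 remaining genes departed from it. Fabp4 differed by 0.60 between its highest and lowest mouse (11.35, 10.82 and 11.06 in WT, 11.07, 11.23 and 10.75 in Het). Plin1 was highest in Het mice 3 and 2 (7.21 and 7.06) and lowest in WT mouse 1 (5.90). Lpl varied by 0.35 and was highest in WT mouse 2 (10.51), the mouse with the lowest Adipoq signal.

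As a description over 6 mice, the correlation of each gene with Adipoq in whole muscle (Pearson r) was 0.94 and 0.93 for the Retn probes, 0.93 for Cidec, 0.91 for Cfd, 0.85 for Pparg and 0.75 for Fabp4. It was 0.05 for Plin1 and -0.95 for the 3′ probe of Lpl, whose range over the mice was 0.35. The 5′ probe of Lpl had an r of -0.08 and a range of 1.09. The SD over the 6 mice was 0.98 for Cidec, 0.86 for Retn, 0.81 for Adipoq and 0.71 for Cfd, against a median of 0.34 over all tested genes. Cidec varied more than 91.7% of them and Lpl more than 9.98%. The high mice were spread over both slides and differed in array brightness, from 13.5 for Het mouse 2 to 150 for WT mouse 1.

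**Figure D2:**
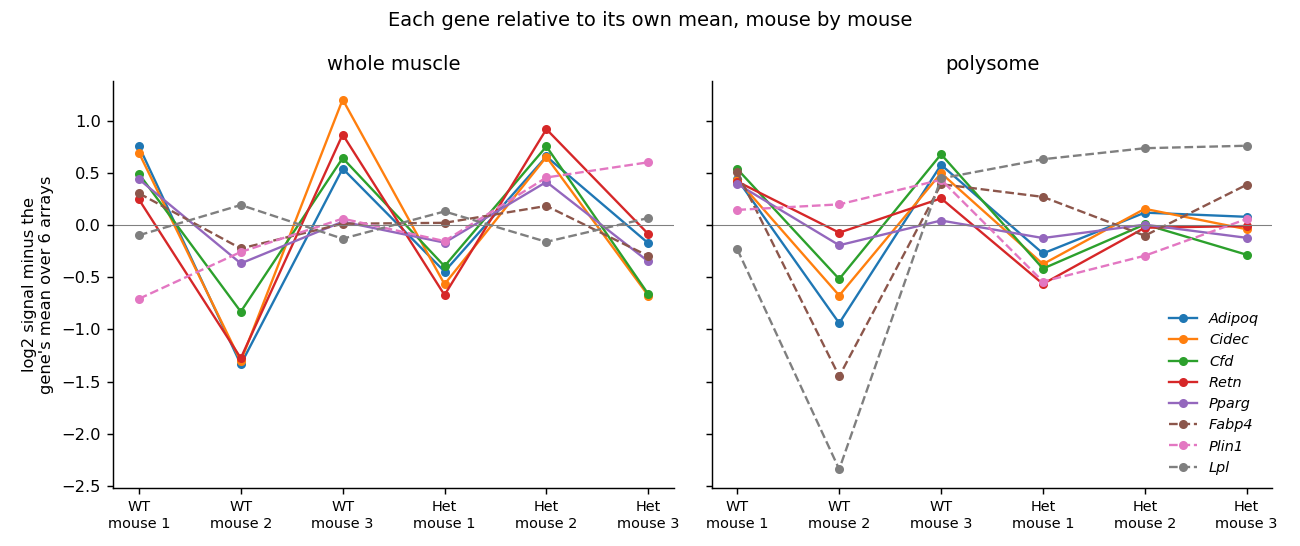
Log2 signal of each gene minus its own mean over the 6 arrays shown (y axis), for each mouse (x axis) in whole muscle (left) and polysomes (right), 1 line per gene. In whole muscle Adipoq, Cidec, Cfd, Retn and Pparg (solid lines) lie above 0 in WT mice 1 and 3 and Het mouse 2, while Fabp4, Plin1 and Lpl (dashed lines) take other courses. In polysomes Lpl falls 2.34 below its mean in WT mouse 2.

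Markers of other cells moved with this pattern only in part. The macrophage list (9 of 10 genes tested, Cd163 below background throughout) had a mean log2 signal of 8.34 and 7.33 in WT mice 1 and 3 and of 5.67 in WT mouse 2, and lay between 5.72 and 5.93 in the Het mice. Het mouse 2, a high mouse for Adipoq, had 5.87. Lyz2 (-2.62), C1qb (-1.77) and C1qa (-1.56) of this list passed the study's threshold as lower in Het whole muscle, against 2.87% of all genes lower. They were -3.54, -2.64 and -2.48 without WT mouse 2, where 7 of the 9 genes passed, against 4.49% of all genes lower. WT mouse 2 was the WT mouse with the low macrophage signal, so leaving it out lowers these differences. The 7 calls rest on WT mice 1 and 3. In summed signal the macrophage genes ranged from 9.33 to 11.997 log2 in WT whole muscle and from 9.48 to 9.65 in Het. The 5 tested alternative complement genes had a mean of 8.03 and 7.69 in WT mice 1 and 3 and 6.27 in Het mouse 2. Stromal genes had a mean of 9.47, 9.14 and 9.55 in WT mice 1, 2 and 3 and of 9.38, 9.34 and 8.75 in Het. The 5 tested lipoprotein lipase partners were highest in WT mice 1 and 3 and Het mouse 2 (8.33, 8.22 and 8.19). The 10 endothelial genes had 7.37, 7.16 and 6.95 in WT and 6.74, 6.59 and 6.76 in Het. Tek (-1.71) and Tie1 (-1.12) passed as lower in Het, while Esam (0.06) and Pecam1 (0.12) lay the other way. Muscle fibre genes lay between 14.59 and 14.93. The part of these lists in the differences between mice was not tested.

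Polysome RNA kept part of this order. Adipoq gave 8.58, 7.21 and 8.72 in WT polysomes and 7.87, 8.27 and 8.23 in Het polysomes. WT mice 1 and 3 were again highest and WT mouse 2 lowest. Cidec gave 8.00, 6.89 and 8.06 in WT and 7.19, 7.72 and 7.52 in Het. Cfd gave 13.56, 12.50 and 13.70 in WT and 12.60, 13.03 and 12.74 in Het. Of the 8 genes, 7 and 8 lay above their own polysome mean in WT mice 1 and 3, 1 in WT mouse 2, and 2, 5 and 4 in Het mice 1, 2 and 3. The spread of Adipoq over the 6 mice was smaller in polysomes (SD 0.55) than in whole muscle (0.81), and so was that of Cidec (0.46 against 0.98), Retn (0.34 against 0.86) and Pparg (0.21 against 0.36). Over all tested genes the median SD was higher in polysomes (0.46 against 0.34). It was larger in polysomes for Lpl (1.20 against 0.15) and Fabp4 (0.74 against 0.23). These differences in spread were not tested.

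The first question of the design was whether the genotypes differed in whole muscle. Of the 8 detected adipocyte genes, 0 passed the study's threshold (absolute log2 difference above 1 and unadjusted p under 0.05 in limma), against 5.04% of all tested genes, and 0 had an unadjusted p under 0.05. The methods' t-test gave 0 as well. The genes lay on both sides of 0, with 4 higher in Het and a median of -0.02 log2, against -0.01 for all genes. With array brightness as a term, 6 of 8 were higher in Het with a median of 0.17, Adipoq was 0.67, Fabp4 0.71 and Lpl 1.05, and 0 had an unadjusted p under 0.05. Brightness and genotype cannot be told apart in whole muscle. Adipoq was 7.49 ± 1.15 in WT and 7.52 ± 0.57 in Het (SD, n = 3 each). Its difference was 0.03 log2 with a 95% interval from -1.21 to 1.26, and a difference of 1 log2 unit in either direction lay within that interval. Plin1 had the largest difference, 6.31 ± 0.39 in WT against 6.91 ± 0.40 in Het, or 0.60 log2 with limma's adjusted p = 0.58. Without WT mouse 2, Cidec passed the threshold at -1.14 (adjusted p = 0.23), Adipoq was -0.64, Cfd -0.67 and Retn -0.50. For each of these genes WT mouse 2 had the lowest whole-muscle signal of all mice, so leaving it out lowers the difference. In that fit 2 of the 8 genes (Plin1 and Lpl) were higher in Het, with a median of -0.39, against -0.01 over all genes.

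In polysomes, 1 of the 8 genes passed the threshold, against 5.18% of all genes. It was Lpl, at 1.42 log2 higher in Het (limma unadjusted p = 0.023, adjusted p = 0.29). The methods' t-test on the polysome arrays alone gave an unadjusted p of 0.17 for Lpl. Its 3′ probe gave 9.07, 6.96 and 9.75 in WT and 9.94, 10.04 and 10.07 in Het. All Het arrays were above all WT arrays, and WT mouse 2 stood far below the rest. Without that mouse the difference was 0.60 and no longer passed the size threshold. The call was also lost on leaving out any 1 of the 3 Het mice, where the difference stayed between 1.39 and 1.46, and held in 2 of the 6 fits that left out a mouse. The 5′ probe of Lpl gave 6.78, 8.91 and 7.41 in WT and 7.50, 7.40 and 8.21 in Het, a difference of 0.00 log2. On that probe WT mouse 2 was the highest of the 6.

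**Figure D3:**
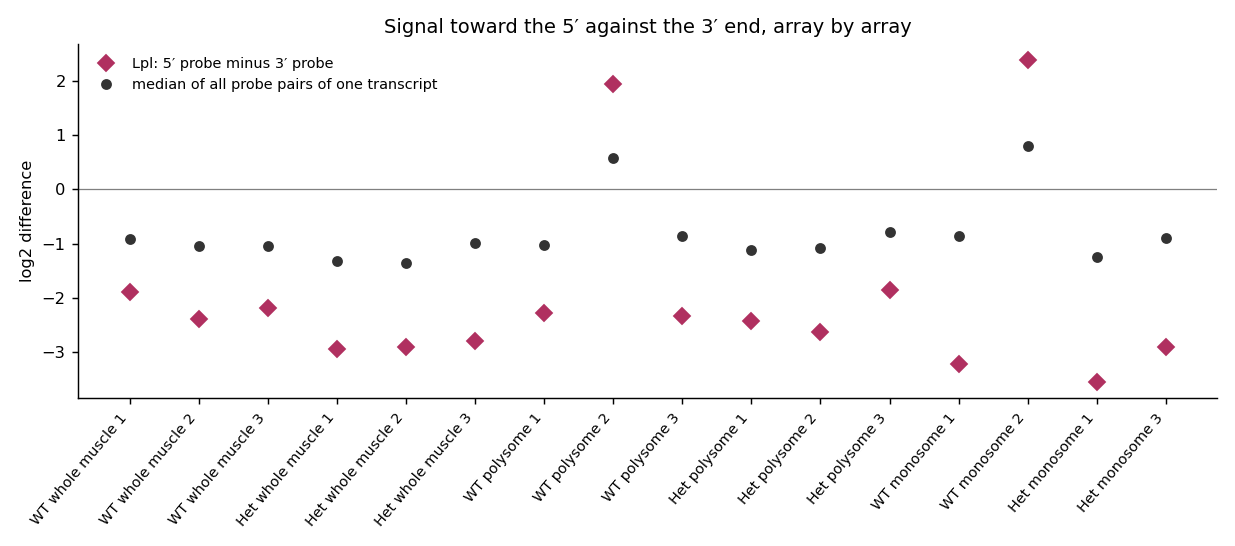
Log2 difference between the 5′ and the 3′ probe (y axis) on each array (x axis), for the pair of Lpl probes (diamonds) and as the median over 1200 transcripts (circles). Lpl follows the array: WT polysome 2 and WT monosome 2 are at 1.94 and 2.39, and the other 14 arrays lie between -3.55 and -1.86.

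The sign of the Lpl difference between probes thus turned on the same arrays on which the median over transcripts did. Retn, whose probes lie close together on the transcript, showed no such turn, with 0.12 and -0.29 on the same arrays and from -0.24 to 0.82 elsewhere. A gain or loss of Lpl that holds on 1 of its probes only is therefore given as uncertain. The remaining genes in polysomes lay between -0.52 (Plin1) and 0.37 (Fabp4). Adipoq differed by -0.05, with an interval from -1.28 to 1.18. Without WT mouse 2, Adipoq was -0.53, Cidec -0.55, Cfd -0.84 and Fabp4 -0.26, with 1 of the 8 genes (Lpl) higher in Het and a median of -0.53.

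**Figure D4:**
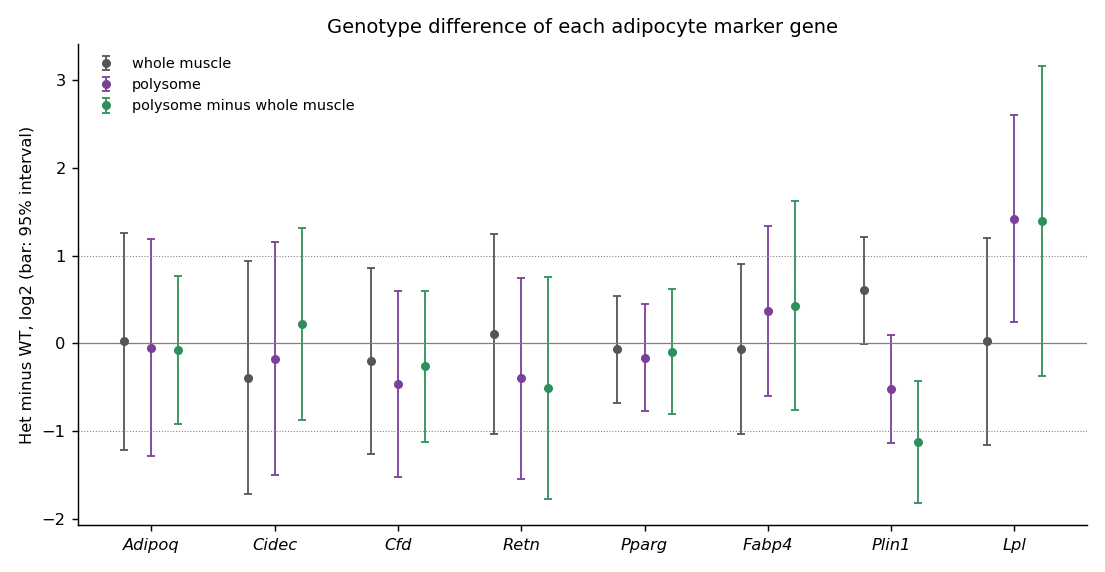
Het minus WT difference in log2 (y axis) of each adipocyte gene (x axis) in whole muscle, in polysomes and for polysome minus whole muscle of the same mouse, with 95% intervals from limma. Dotted lines mark a difference of 1. The intervals of Plin1 for polysome minus whole muscle (-1.82 to -0.42) and of Lpl in polysomes (0.24 to 2.60) leave out 0.

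Loading, the polysome signal minus the whole-muscle signal of the same mouse, was compared between genotypes. Of the 8 genes, 1 passed the threshold between genotypes, against 13.6% of all genes. It was Plin1, the droplet coat protein. Its loading was 1.09, 0.69 and 0.61 log2 in WT mice 1, 2 and 3 and -0.15, -0.52 and -0.31 in Het mice 1, 2 and 3. All WT mice were above 0 and all Het mice below it. The difference was -1.12 ± 0.30 log2 (SE), a 2.17-fold lower loading in Het (limma unadjusted p = 0.0065, adjusted p = 0.14). It was -1.17 without WT mouse 2 and between -1.21 and -0.98 when each mouse was left out in turn, but fell short of the size threshold without WT mouse 1.

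The Plin1 difference in loading was made up of a higher Het signal in whole muscle (0.60) and a lower one in polysomes (-0.52). Neither passed the threshold. Adding slide to the fit gave -1.03, and the values were -1.18 and -0.88 on slides 1 and 2 alone, where mice could not be paired and 1 genotype of each RNA kind had a single array. It was -0.68 with normexp background and -0.79 with the authors' processed values, both under the size threshold. Array brightness moved with it. The log2 brightness of polysome minus whole muscle was -1.46, -1.24 and 0.64 in WT mice 1, 2 and 3 and 1.16, 2.98 and 1.73 in Het. With brightness as a term the difference was -0.67, short of the threshold. Brightness and genotype differ together here and cannot be told apart. The loading of the remaining 7 genes did not pass, and differed between genotypes by between -0.51 (Retn) and 1.39 (Lpl), with -0.07 for Adipoq. Without WT mouse 2 these values were 0.48 for Lpl and -0.03 for Retn.

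Over both genotypes, most of the 8 marker transcripts were relatively higher in polysome than in whole-muscle RNA. With limma's adjusted p under 0.05, 5 of the 8 genes were higher (Cfd, Fabp4, Pparg, Adipoq and Retn) and 0 lower, against 13.9% of all genes higher. At the study's threshold 2 of 8 were higher, against 5.1% of all genes, and 1 lower (Lpl), against 6.28%. The median difference of the 8 genes was 0.69 log2, against 0.12 over all genes. All signals are relative to the other transcripts of the same array, so that these are relative shifts, not amounts of RNA. Stromal and endothelial marker lists had medians of 0.79 and 0.59 in the same comparison, and the part of such cells in the result was not tested.

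Adipsin and Fabp4 had the highest differences. Cfd rose from 11.53 ± 0.81 in WT whole muscle to 13.25 ± 0.65 in WT polysomes and from 11.33 ± 0.75 to 12.79 ± 0.22 in Het (SD, n = 3 each). Within mice the difference was 1.64, 1.91 and 1.63 in WT and 1.57, 0.85 and 1.97 in Het. All 6 mice were above 0, and the lowest polysome array (12.50) was above the highest whole-muscle array (12.18). The mean was 1.59 ± 0.18 log2 (SE), or 3.02-fold (limma adjusted p = 0.0021). It stayed called without each mouse in turn, with adjusted p from 0.0044 to 0.014. Fabp4 followed with 1.77, 0.35 and 1.95 in WT and 1.82, 1.29 and 2.25 in Het. Its mean was 1.57 ± 0.25 (SE), or 2.97-fold (adjusted p = 0.0063 in limma), and WT mouse 2 gave the lowest value. Without that mouse it was 1.82, and Cfd was 1.55.

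Smaller differences were seen for the regulator and the hormones. Pparg was higher in polysomes in all 6 mice, by 0.67, 0.89 and 0.73 in WT and 0.76, 0.31 and 0.94 in Het, and polysome and whole-muscle arrays did not overlap (5.99 to 6.58 against 5.10 to 5.91). Its mean was 0.72 ± 0.15 (SE, adjusted p = 0.016 in limma). Adipoq was higher in all 6 mice, by 0.32, 1.04 and 0.68 in WT and 0.81, 0.10 and 0.89 in Het, with a mean of 0.64 ± 0.18 (limma adjusted p = 0.039). Retn was higher in 5 of 6 mice, by 0.90 ± 0.27 (adjusted p = 0.048), and its second probe in all 6 by 1.11 (adjusted p = 0.030). For Het mouse 2, the Het mouse with the highest whole-muscle signal, the differences of Adipoq, Cidec, Cfd, Pparg and Retn were the lowest or, for Cidec, the second lowest of the 6. Since whole muscle enters both values, this is a description.

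The calls for Adipoq and Retn were the least firm, each kept in 2 of the 6 fits that left out a mouse. Pparg kept its call in 4 of those 6, and its difference lay between 0.32 and 0.81 over the alternatives. Without WT mouse 2, Adipoq was 0.55 (adjusted p = 0.064) and Retn 0.66 (adjusted p = 0.076). In limma's fit without the pairing of RNA kinds, the adjusted p was 0.28 for Adipoq and 0.10 for Retn. On slide 1 alone, where the polysome and the whole-muscle arrays came from different mice, Adipoq was -0.01, Retn 0.06 and Cidec -0.17, and on slide 2 alone they were 1.35, 1.61 and 1.39. With slide as a term in the paired fit, Adipoq was 0.64 (adjusted p = 0.061) and Retn 0.90 (adjusted p = 0.042). Cidec was higher by 0.67 (adjusted p = 0.075) and Plin1 by 0.23 (adjusted p = 0.29), which did not pass. Plin1 was higher in the 3 WT mice alone.

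Lpl was the exception in direction. On its 3′ probe it was lower in polysomes in all 6 mice, by -1.15, -3.54 and -0.43 in WT and -0.51, -0.11 and -0.32 in Het, with no overlap between polysome (6.96 to 10.07) and whole-muscle arrays (10.15 to 10.51). The mean was -1.01 ± 0.38 (SE, limma adjusted p = 0.093). Without WT mouse 2 it was -0.55. The 5′ probe gave -0.09 (adjusted p = 0.84), with 3 of 6 mice above 0. The direction for Lpl thus held on the 3′ probe only.

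**Figure D5:**
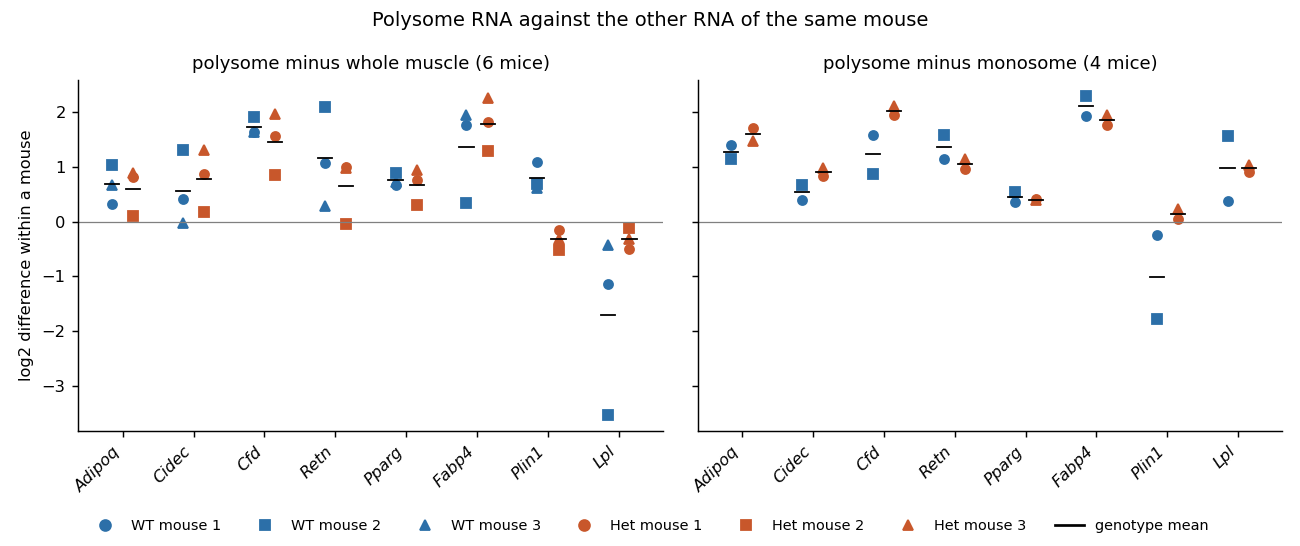
Log2 difference between polysome and whole-muscle signal of the same mouse (left, 6 mice) and between polysome and monosome signal (right, 4 mice) for each gene (x axis), 1 point per mouse with a black bar for the genotype mean. Cfd and Fabp4 lie above 0 in every mouse of both panels, and Plin1 on the left is above 0 in WT (0.61 to 1.09) and below 0 in Het (-0.52 to -0.15).

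Against monosome RNA, which 4 mice had, 4 of the 8 genes passed the threshold as higher in polysomes (Fabp4, Cfd, Adipoq and Retn), against 13.7% of all genes. After adjustment in limma 0 passed, with 6 at an unadjusted p under 0.05. Adipoq was higher by 1.39 and 1.15 in WT mice 1 and 2 and by 1.71 and 1.48 in Het mice 1 and 3. Its mean was 1.43 ± 0.21 (SE, adjusted p = 0.055). Fabp4 was higher by 1.99 ± 0.21, Cfd by 1.63 ± 0.24 and Retn by 1.21 ± 0.22, each with adjusted p = 0.055. These 4 genes passed after adjustment without WT mouse 2, with 1.49 for Adipoq, 1.90 for Fabp4, and 1.81 for Cfd (adjusted p = 0.029 in limma for each), and an adjusted p of 0.030 for Retn, against 19.5% of all genes higher in that fit. All 4 mice were above 0 for these 4 genes. Both Lpl probes were higher in polysomes here, by 0.97 and 1.64. Plin1 was -0.44, with -0.06 left without WT mouse 2, on whose monosome array it gave its highest signal of the 16 (8.82). The polysome arrays of these mice enter the comparison with whole muscle as well.

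Between genotypes in monosome RNA, 2 of the 8 genes passed the threshold, against 28.2% of all genes. Plin1 was lower in Het, with a difference of -1.56 log2 (7.23 and 8.82 in WT, 6.26 and 6.68 in Het, limma adjusted p = 0.091), and Lpl was higher by 1.98 on its 3′ probe (adjusted p = 0.15), although 1 of the 2 WT arrays was not well above background there. Both lost the call without WT mouse 2, with -0.77 for Plin1 and 0.33 for Lpl. The 5′ probe of Lpl was -0.83. Without WT mouse 2, Cfd (-1.34) and Cidec (-1.15) passed the threshold instead, with 1 WT array left.

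Across the 6 groups, Adipoq was highest in WT and Het polysomes (8.17 and 8.12), then in Het and WT whole muscle (7.52 and 7.49), then in WT and Het monosomes (6.63 and 6.46). Among neighbours in this order, the gap exceeded the larger of their SDs between Het polysomes and Het whole muscle alone (0.60 against 0.57). Cfd ran from 13.25 in WT polysomes to 10.64 in Het monosomes, with such a gap between Het polysomes and WT monosomes alone (0.99 against 0.25). Retn ran from 8.60 in WT polysomes to 7.06 in Het monosomes, with such a gap between WT and Het polysomes alone (0.40 against 0.32). Fabp4 ran from 12.80 in Het polysomes to 10.02 in WT monosomes, with such a gap between WT polysomes and Het monosomes alone (1.35 against 1.097). Lpl ran from 10.33 in Het whole muscle to 7.04 in WT monosomes, with such gaps between WT whole muscle and Het polysomes and between Het polysomes and Het monosomes. For Cidec, Pparg and Plin1 no neighbours differed by more than the larger SD. Plin1 alone was highest in WT monosomes (8.03 ± 1.12, SD, n = 2) and lowest in WT whole muscle (6.31 ± 0.39).

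Among the genes whose pattern was most like that of Adipoq over the 12 whole-muscle and polysome arrays were, by Pearson r among 15867 genes, Ptplb (0.95), Cidec (0.94), Hp (0.93), Acp5 (0.92), Cfb (0.91), Rbp4 (0.90), C4b (0.90), Mup2 (0.89) and Trf (0.88). Hp (haptoglobin), Rbp4 (retinol binding protein), Trf (transferrin) and the complement proteins Cfb and C4b are secreted. Mup2 belongs to a family of near-identical genes, so its probe may read several of them. Retn ranked 13th with 0.87, Cfd 23rd with 0.83, Pparg 38th with 0.79 and Fabp4 211th with 0.69. Plin1 (0.23) and Lpl (-0.02) were far from it. The 100 genes most like Adipoq held 4 other members and 2 of 28 other tested genes of lipid storage and adipocyte identity. C1qc of the macrophage list was also among them. The 12 arrays share mice, slides and the shift between RNA kinds, which enter these values.

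Other genes of the fat cell were compared between genotypes too. Of 34 further genes of lipid storage and adipocyte identity, 28 were tested. In whole muscle 1 was higher in Het at the study's threshold (Adrb3, the beta-3 adrenergic receptor, 1.25) and 0 lower, against 5.04% of all genes in either direction, with a median of 0.01 against -0.01 over all genes. In polysomes 3 were higher (Thrsp 1.22, Me1 1.18 and Cd36 1.09), against 5.18% of all genes, with a median of 0.14 against 0.02. Thrsp (1.05) still passed without WT mouse 2, and Me1 (0.51) and Cd36 (0.67) did not. For loading 3 were higher (Cd36 1.78, Bscl2 1.14 and Gpam 1.097) and 1 lower (Adrb3 -1.76), against 13.6% of all genes, with a median of 0.34 against 0.12. After adjustment in limma, 0 passed in any of these 3 comparisons. Cd36, the fatty acid transporter, is also abundant in muscle fibres and capillaries. Between polysome and whole-muscle RNA, 6 of the 28 were higher and 1 lower after adjustment, against 13.9% of all genes higher. Past the study's threshold were Cav1 (1.69), Car3 (1.51), Mgll (1.06) and Sncg (1.02), and Me1 (-1.27) in the other direction. Sncg (0.87) and Me1 (-0.84) fell short of that threshold when WT mouse 2 was left out.

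Partners of the members were on the array too. Of the proteins that handle lipoprotein lipase, 5 of 6 were tested. Gpihbp1, the capillary anchor of the lipase, was higher in polysomes than in whole muscle by 1.46 (limma adjusted p = 0.0023). Angptl4, its inhibitor, was lower in Het polysomes (-2.02) and Sel1l higher (1.31) at the study's threshold, against 5.18% of all genes. Their adjusted p in limma was 0.29 and 0.33. In polysomes, leaving out WT mouse 2 gave -2.74 for Angptl4 and 0.44 for Sel1l, which lost its call. In whole muscle Angptl4 was -1.31, which did not pass, and -2.04 without WT mouse 2, which did. Of the receptors of the secreted hormones, all 5 were tested. Adipor1, an adiponectin receptor, was lower in polysomes than in whole muscle, at -2.43 log2 (adjusted p = 0.0023 in limma), and Cdh13, which also binds adiponectin, was higher by 1.03 (adjusted p = 0.0058), or by 0.91 without WT mouse 2. Cap1, a receptor of resistin, was lower in Het whole muscle, at -1.07 (adjusted p = 0.43). Of the alternative complement pathway, in which adipsin cuts factor B, 5 of 6 genes were tested. Cfp (1.38) and C3 (1.04) were higher in polysomes than in whole muscle, as adipsin was, and Cfp was lower in Het polysomes, at -1.77 (adjusted p = 0.30). When WT mouse 2 was left out, Cfp (-1.99 and -2.31), C3 (-1.43 and -1.76) and Cfb (-1.19 and -1.14) passed the study's threshold as lower in Het. These pairs of values are for whole muscle and polysomes, where 4.49% and 2.12% of all genes were lower in that fit. None of the 3 was under 0.05 after adjustment in limma. WT mouse 2 had the lowest list mean of the WT mice (6.22 in whole muscle and 6.01 in polysomes), so leaving it out lowers the differences. In the same fit 8 of 9 macrophage genes passed as lower in Het polysomes.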

How the data were processed

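Each RNA sample was labelled with Cy3 and hybridised to a single-colour Agilent array. The deposited scanner files, which the authors made with Feature Extraction 11.0.1.1, hold spot intensity values, and the processed intensity is background-subtracted. The authors' series table holds log2 values, quantile-normalized over arrays (column medians 5.68 to 5.70), and was used as an alternative. Probe positions are on mm9, per the file headers.

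Spots marked as outliers were left out, spots of a probe were averaged, and log2 processed signals were quantile-normalized over the 16 arrays. Of 55681 probes, 20250 passed the detection rule given above. Fits used limma 3.58.1 in R 4.3.3, p-values were adjusted by Benjamini and Hochberg's method across the tested probes, and the fits were tested on simulated data. Whole-muscle and polysome groups shared a fit of 12 arrays, and monosome groups one of 16. Polysome comparisons used within-mouse differences with genotype as the term. The design text says that RNA of each kind came from the same mice, and the replicate number was taken to mark the mouse. Deviations of whole-muscle and polysome arrays that share a genotype and number correlated with r from 0.05 to 0.48. WT and Het arrays that share a number, which are different mice, gave r from -0.33 to 0.45. These ranges overlap, so they do not settle the pairing. A gene is represented by its probe of highest mean signal. Percentages of all genes count genes in the same way. An exact test of 3 against 3 cannot go below p = 0.1, so p-values come from the fits, and precision is limited by the number of arrays. All 10 members are named, with Eif6 as the label check, the 10 genes most correlated with Adipoq (1 of them is not reported here), and those past the study's threshold in fixed lists, at most 6 per list. Members and lists were chosen with earlier results of these data known. Alternatives covered scaling, background, filter, slide, left-out mice, pairing, the methods' t-test, other probes and, chosen after seeing the data, array brightness and the list genes without WT mouse 2. No array pair held identical values.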

Additional observations from a re-analysis of the deposited data

Results flagged for a closer look

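Plin1 loading (polysome minus whole-muscle signal) was above 0 in all 3 WT mice and below 0 in all 3 Het mice, a Het minus WT difference of -1.12 log2. The genotype term tested that difference in limma, with an adjusted p of 0.14. The 5′ probe of Cidec, which was not tested, was well above background on a single array, WT whole muscle 1, with a log2 signal of 4.06. On WT whole muscle 3, where it was not above background, it was 3.95, and on the other 14 arrays it lay between 1.48 and 2.40. WT whole muscle 1 was the brightest array. Groups held 2 or 3 arrays, and Dixon's outlier test was not applied to groups of that size.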

How the results depend on the processing

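Counts are of the 8 tested genes past the study's threshold. On a single slide each group held 1 or 2 arrays, with 1 array in at least 1 genotype, so a call lost or gained there says little. Between genotypes in whole muscle, 0 genes passed, and leaving out each mouse gave 0 to 1 (Cidec, without WT mouse 2), with 0 under every other alternative run. In polysomes 1 gene passed (Lpl), and 0 on slide 1 or slide 2 alone, with brightness as a term, with the methods' t-test or with the other probe. Leaving out each mouse gave 0 to 1, with the call lost without WT mouse 2 or any of the 3 Het mice. For loading 1 gene passed (Plin1), and 0 with normexp background, on slide 1 or slide 2 alone or with brightness as a term. With the authors' processed values 1 gene passed, but it was Lpl (1.23) in place of Plin1. Leaving out each mouse gave 0 to 2. In monosomes 2 genes passed, 1 with normexp background, no filter, slide as a term, a replicate block, the methods' t-test or the other probe, and 0 on slide 1 alone, against 3 on slide 2 alone (Lpl 3.63, Plin1 -2.14 and Fabp4 2.18), each time with 1 array against 1, WT monosome 2 being the WT array on slide 2. With brightness as a term the 2 genes were Plin1 and Cfd (-1.26), without Lpl. Leaving out each mouse gave 0 to 3, with a lone monosome array assumed to vary like the other groups. Lpl in monosomes turned from 1.98 to -0.83 with the other probe. For polysome minus whole muscle 3 genes passed, and 0 on slide 1 alone against 3 on slide 2 alone (Fabp4, Cfd and Retn). Leaving out each mouse gave 2 to 4. For polysome minus monosome 4 genes passed, 2 with normexp background and 0 on slide 1 alone against 5 on slide 2 alone. Leaving out each mouse gave 4 to 5. Why these counts moved was not tested, beyond the fewer arrays of a slide. With a replicate block, which between genotypes pairs different mice that share a number, 0 genes passed in whole muscle and 1 in polysomes. Without the pairing of RNA kinds, 1 gene passed for loading, 3 for polysome minus whole muscle and 5 for polysome minus monosome, where Lpl was added. Over single genes, 850 values were recomputed under alternatives: 720 kept their call or, without one, stayed within 1 SE, 50 lost a call, 20 gained one, 59 moved by more than that without a call, and 1, the Lpl value above, was reversed.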

Other observations

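Other lists were compared in the same way. Between polysome and whole-muscle RNA, limma called 6 of 9 tested stromal genes higher after adjustment (among them Dcn at 1.20, Pi16 at 1.11 and Ly6a at 1.03), with a median of 0.79 log2, and 4 of 10 endothelial genes (Tie1 at 1.69), with a median of 0.59, against 13.9% of all genes higher. The 9 macrophage genes had a median of 0.36, the 4 red blood cell genes 0.55 and the 6 Schwann cell genes 0.51. The 13 muscle fibre genes had a median of -0.51, with 3 lower (Atp2a1 at -1.68 and Mylpf at -1.30 past the study's threshold) and 0 higher, against 10.9% of all genes lower and a median of 0.12 over all genes. The 8 adipocyte genes, at 0.69, lay between the stromal and the endothelial lists.

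Of the brown and beige adipocyte genes, 8 of 12 were tested, and Elovl3, Tmem26 and Otop1 were not well above background on any array, as Ucp1 was not. Prdm16, a regulator of brown fat identity, was higher in polysomes than in whole muscle by 1.13 (adjusted p = 0.014 in limma) and higher in Het for loading by 1.47 (adjusted p = 0.19), or by 0.999 without WT mouse 2, short of the size threshold. Of the 11 adipogenic transcription regulators, Rxra, the partner of Pparg on DNA, was lower in Het for loading, at -1.41 (adjusted p = 0.19), or -0.97 without WT mouse 2. No other regulator passed the study's threshold between genotypes in whole muscle, polysomes or loading. Prdm16 and Rxra were the only genes of their lists called for loading, against 13.6% of all genes.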
